A study of Mus musculus with 8 samples.

Results

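Suprabasin (Sbsn), dermokine (Dmkn) and keratinocyte differentiation-associated protein (Krtdap) are 3 neighbouring genes on mouse chromosome 7 that encode proteins secreted by the skin. They were followed by symbol, and all 3 were found among the 55536 genes of the count table. The genes were chosen by their log2 fold change and counts in this same contrast, Klf4 against control, in earlier results of these data, so that difference is described below without a test. All samples were MIN6, an insulin-producing β-cell line from a mouse pancreatic tumour, listed as wild type. The 4 control libraries came from cells transfected with the empty vector pcDNA 3, and the 4 Klf4 libraries from cells transfected with pGloMyc-Klf4, a plasmid that expresses the zinc-finger transcription factor Klf4. All cells were transfected for 48 h with Lipofectamine 3000, and the labels give replicates 1 and 2 of each group as batch 1 and replicates 3 and 4 as batch 2. The plasmid names differ in backbone as well as insert, so the effects of backbone and Klf4 cannot be told apart. The labels' extraction text speaks of isolated islets, while every sample is named MIN6. The labels call the replicates biological but name no separate cultures, so the p-values measure the spread between these libraries.

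Stratified epithelia such as the epidermis renew from a basal layer, and cells that leave it switch on suprabasal keratins, envelope proteins and a set of secreted proteins. Suprabasin and dermokine are glycine-rich proteins secreted by the suprabasal layers. Krtdap is a small secreted protein that appears as keratinocytes commit to differentiate. Klf4 is itself expressed in the suprabasal epidermis, where it is needed for the skin barrier, and it binds GC-rich and CACCC-type DNA.

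In the GENCODE M21 annotation of GRCm38, all 3 are protein-coding genes on the plus strand and lie head to tail over 39.6 kb. Sbsn (ENSMUSG00000046056) spans 30751471 to 30756134, Dmkn (ENSMUSG00000060962) spans 30763756 to 30781063 and Krtdap (ENSMUSG00000074199) spans 30787896 to 30791097. The gaps between them are 7.6 kb and 6.8 kb, with no other gene annotated inside them. An exon of Sbsn overlaps a non-coding gene of the same strand, Tmem147os (ENSMUSG00000109224), which had 2 counts over the control libraries and 2 over the Klf4 libraries. Dmkn and Krtdap share no exon with another gene. Each of the 3 has annotated transcripts with 5 distinct starts, which lie between 30751471 and 30752628 for Sbsn, 30763756 and 30776401 for Dmkn, and 30787896 and 30790487 for Krtdap. A count per gene does not tell which was used.

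The windows around the starts are shown because all 3 genes were higher in the same libraries and Klf4 is a DNA-binding protein. Each runs from 250 bases before to 50 bases after a start, 5′ to 3′ on the plus strand, as given by RefSeq for GRCm38.p6. The RefSeq table gives 1 window for Sbsn, 3 for Dmkn and 1 for Krtdap, and a start below means the start of that window. The first and second windows of Dmkn are the same stretch shifted by 2 bases, so only the first is printed. Capitals mark every match, on either strand, to 3 motifs, which are CACCC, the TATA box core TATAAA, and lastly TGANTCA.
Sbsn, chr7:30751221-30751520: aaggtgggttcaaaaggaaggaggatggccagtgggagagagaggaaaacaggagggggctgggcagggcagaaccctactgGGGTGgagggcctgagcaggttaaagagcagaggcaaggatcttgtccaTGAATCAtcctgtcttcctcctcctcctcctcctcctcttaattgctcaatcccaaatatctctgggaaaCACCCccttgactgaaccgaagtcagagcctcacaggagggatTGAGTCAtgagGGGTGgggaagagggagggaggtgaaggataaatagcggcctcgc
Dmkn upstream start, chr7:30763506-30763805: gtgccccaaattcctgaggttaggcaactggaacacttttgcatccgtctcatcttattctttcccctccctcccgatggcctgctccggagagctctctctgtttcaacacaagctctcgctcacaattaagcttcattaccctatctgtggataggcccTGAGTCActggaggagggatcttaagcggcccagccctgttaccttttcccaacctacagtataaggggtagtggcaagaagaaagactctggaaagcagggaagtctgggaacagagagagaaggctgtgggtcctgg
Dmkn downstream start, chr7:30776155-30776454: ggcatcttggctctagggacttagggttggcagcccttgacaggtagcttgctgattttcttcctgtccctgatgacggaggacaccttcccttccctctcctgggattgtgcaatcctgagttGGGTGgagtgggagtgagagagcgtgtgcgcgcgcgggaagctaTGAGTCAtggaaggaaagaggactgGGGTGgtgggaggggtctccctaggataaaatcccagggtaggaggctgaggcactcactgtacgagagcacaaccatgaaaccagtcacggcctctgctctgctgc
Krtdap, chr7:30787655-30787954: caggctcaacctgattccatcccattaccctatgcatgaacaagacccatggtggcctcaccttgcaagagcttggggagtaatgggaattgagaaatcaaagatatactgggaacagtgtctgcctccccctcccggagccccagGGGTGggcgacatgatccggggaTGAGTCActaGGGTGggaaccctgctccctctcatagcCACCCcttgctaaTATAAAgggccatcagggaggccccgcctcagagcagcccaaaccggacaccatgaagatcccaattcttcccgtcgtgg

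TGANTCA, where N is any base, reads the same on both strands and was present in every window of the 3 genes. This pattern covers the core that AP-1 proteins bind, TGAGTCA or TGACTCA, but also TGAATCA and TGATTCA. It occurred as TGAGTCA beginning 89 bases before the upstream start of Dmkn, 82 bases before its downstream start and 81 bases before the start of Krtdap. Sbsn held TGAATCA 119 bases and TGAGTCA 6 bases before its start. Of 32851 windows of the same length in the table, 7.81% held this motif, and among the 68 windows of 52 genes within 500 kb of the locus 10.3% did. CACCC, a core of Klf-type sites, had 3 matches in Sbsn, 3 in Krtdap, 2 at the downstream start of Dmkn and none at its upstream start, and 57.5% of all windows and 75.0% of those within 500 kb held it. The longer motifs CCACACCC, which contains CACCC, and GGGNGTGG occurred in none of these windows, against 3.56% and 17.6% of all windows and 5.88% and 32.4% of those within 500 kb. TATAAA occurred in the Krtdap window only, 30 bases before the start, and in 13.6% of all windows and 10.3% of those within 500 kb. CATTCC, the core bound by TEAD factors, had no match here and was held by 14.7% of all windows and 16.2% of those within 500 kb. A match is only a string of letters, and no binding was measured.

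Library totals were 45417853 to 52731176 counts, and every gene's value is given in CPM, its count per 1000000 counts of the library, after scaling with TMM factors of 0.996 to 1.01. Klf4 itself checks the labels, with 36.1 to 42.8 CPM in the control libraries and 4529 to 5849 CPM in those given its plasmid. The count joins the cell's own and the plasmid's transcript. All 8 β-cell markers listed were tested and present in every library, Ins1 and Ins2 included, with a summed level of 24463 to 31171 CPM in control and 22843 to 31435 CPM in Klf4 libraries. Of these 8, 5 were lower, with log2 fold changes of -0.22 to -0.07, and 3 did not pass the threshold of an edgeR adjusted p under 0.05, where 15.5% of all tested genes were lower.

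Sbsn was already present at a low level in β-cells that received the empty vector. Its counts were 184, 176, 209 and 237 in control replicates 1 to 4 and 3321, 2880, 4140 and 4379 in Klf4 replicates 1 to 4. The lowest Klf4 library stood far above the highest control library, and the groups did not overlap. The choice of the gene by this contrast favours such a separation, and its share among all genes was not counted. The mean level was 4.17 ± 0.556 CPM without and 72.4 ± 9.93 CPM with the Klf4 plasmid (SD, n = 4), a ratio of 17.4. In a bulk sample, more cells that express a gene and more RNA per cell cannot be told apart. The log2 fold change was 4.12 (SE 0.053), with 4.09 in batch 1 and 4.14 in batch 2. This SE, like every edgeR SE below, was derived from the test statistic and is approximate. The DESeq2 Wald test gave an SE of 0.067.

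Dmkn, like Sbsn, gave reads in every control library. It had 156, 166, 232 and 257 counts in control replicates 1 to 4, and 3622, 2985, 4225 and 4371 counts in Klf4 replicates 1 to 4. Again every Klf4 library lay above every control library, which the choice of the gene favours here too. Its mean level was 4.19 ± 0.988 CPM without and 74.8 ± 8.09 CPM with the Klf4 plasmid (SD, n = 4), a ratio of 17.9. The log2 fold change was 4.16 (SE 0.060 in edgeR, 0.073 by the DESeq2 Wald test), with 4.34 in batch 1 and 4.02 in batch 2.

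Krtdap differed from its neighbours in that control cells gave almost no reads from it. Control replicate 1 had 1 count and the other 3 control libraries had 0, while Klf4 replicates 1 to 4 had 523, 445, 775 and 767. Every Klf4 library was thus far above the floor of 3 counts, the limit that a count of 0 allows, and every control library was under it. Expression in the Klf4 libraries was 12.3 ± 2.7 CPM (SD, n = 4), and 3 counts correspond on average to 0.0621 CPM in a control library. With 2510 against 1 count over the groups, the ratio of the scaled totals was 2399. Its exact 95% interval of 430.1 to 94778 covers counting error only. It takes no account of the choice of the gene by these counts and is no test. The fitted log2 fold change of 10.64 depends on edgeR's prior count. Its SE of 0.24, derived from the test statistic, understates the error at 1 control count. The DESeq2 Wald test gave 10.91 (SE 1.02). Without control replicate 1 the edgeR value was 12.34, so it is not comparable with those of Sbsn and Dmkn.

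**Figure D1:**
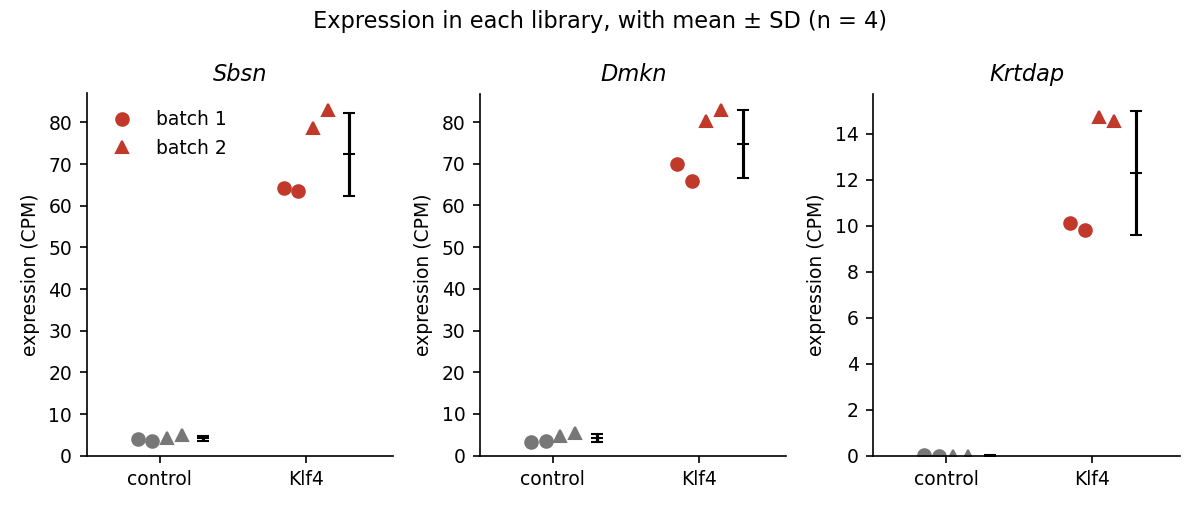
Expression of Sbsn, Dmkn and Krtdap in CPM (vertical axis, linear, a separate scale for each gene) in the control and Klf4 libraries. Each point is a library, circles for batch 1 and triangles for batch 2, and the bar beside each group is its mean ± SD (n = 4). Control libraries lie between 3.31 and 5.32 CPM for Sbsn and Dmkn and at or near 0 for Krtdap, and the batch 2 triangles lie above the batch 1 circles among the Klf4 libraries of all 3 genes.

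Among the 18266 genes tested, 36.6% passed the threshold, an edgeR quasi-likelihood p under 0.05 after Benjamini-Hochberg adjustment, 21.1% higher and 15.5% lower in Klf4 libraries. All 3 genes were among the higher ones, which is how they came to be chosen. In absolute level, Sbsn stood at rank 11093 to 11594 of all genes in the control libraries and at rank 3014 to 3990 in the Klf4 libraries. Dmkn stood at rank 10968 to 11729 in control and 3018 to 3854 in Klf4 libraries. Krtdap stood at rank 9236 to 10176 in Klf4 libraries, so that each of its Klf4 values is higher in rank than Sbsn or Dmkn was in any control library.

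Levels of different genes can be compared only per length of transcript, and here the gaps between the genes rested on the length chosen. Per kb of all annotated exons (3625, 2192 and 679 bases for Sbsn, Dmkn and Krtdap), the Klf4 libraries gave 30.1 to 37.8 CPM per kb for Dmkn, 17.5 to 22.9 for Sbsn and 14.5 to 21.7 for Krtdap. Sbsn and Krtdap overlapped on this scale. Per kb of the longest coding transcript (2221, 2063 and 470 bases), Dmkn had 31.9 to 40.1 CPM per kb, Sbsn 28.6 to 37.4 and Krtdap 20.9 to 31.3, so that neighbours in the order overlapped throughout. Within each Klf4 library the order was the same on both scales, Dmkn above Sbsn and Sbsn above Krtdap. In Klf4 replicate 3 Sbsn and Krtdap were nearly equal per kb of all annotated exons (21.70 and 21.69). Control libraries had 0.997 to 1.35 CPM per kb of Sbsn and 1.51 to 2.43 of Dmkn over all annotated exons.

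Within a library the counts of Sbsn and Dmkn stayed close to each other in both groups. The ratio of Sbsn to Dmkn counts was 1.18, 1.06, 0.901 and 0.922 in control replicates 1 to 4 and 0.917, 0.965, 0.98 and 1.00 in Klf4 replicates 1 to 4. The groups overlapped in this ratio, with means of 1.02 ± 0.13 and 0.966 ± 0.036 (SD, n = 4). The ratio of Krtdap to Sbsn counts was 0.157, 0.155, 0.187 and 0.175 in Klf4 replicates 1 to 4, and 0.00543 in control replicate 1. The other 3 control libraries had no Krtdap count. These ratios come from the counts by which the genes were chosen and are given as a description.

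A comparison that played no part in the choice of these genes is that of the batches within the Klf4 libraries. All 3 genes were higher in batch 2. Sbsn had 64.2 and 63.6 CPM in batch 1 against 78.7 and 83.0 CPM in batch 2, Dmkn 70.0 and 65.9 against 80.3 and 82.8 CPM, and Krtdap 10.1 and 9.82 against 14.7 and 14.5 CPM. No batch 1 library reached a batch 2 library for any of the 3, with only 2 libraries in each batch. How many of all genes separate in this way was not counted. The log2 difference was 0.34 (SE 0.054) for Sbsn, with an adjusted p of 3.04e-05 in edgeR. It was 0.26 (SE 0.053) for Dmkn, with an edgeR adjusted p of 0.000602. For Krtdap it was 0.55 (SE 0.11), with an edgeR adjusted p of 0.000428. Of all genes tested 15.6% passed in this comparison, 8.67% higher and 6.96% lower in batch 2. Whether the batch difference of Krtdap is larger than that of Sbsn or Dmkn was not tested.

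Klf4 was also higher in batch 2, though unevenly. Its level was 4870 and 4529 CPM in Klf4 libraries of batch 1 and 4900 and 5849 CPM in those of batch 2, a log2 difference of 0.19 (SE 0.046, edgeR adjusted p 0.00345). Replicates 3 and 4 differed more from each other than replicate 3 did from replicate 1 or 2. Per 1000 counts of Klf4, the Klf4 libraries held 13.2, 14.0, 16.1 and 14.2 counts of Sbsn in replicates 1 to 4. Dmkn stood at 14.4, 14.5, 16.4 and 14.2 counts on this scale. Krtdap stood at 2.08, 2.17, 3.01 and 2.48 counts per 1000 of Klf4, so both batch 2 libraries stayed above both batch 1 libraries. Sbsn kept that order, narrowly, while Dmkn in replicate 4 was the lowest of the group. In control libraries, which lack the plasmid's Klf4, Sbsn and Dmkn were also higher in batch 2, by 0.28 and 0.58 on the log2 scale. The log2 difference of Klf4 itself was -0.18 there. The part of Klf4 dose in the batch difference was not tested.

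The effect of the plasmid was not shown to differ between batches for any of the 3 genes, where 0.766% of all genes passed. For Sbsn the plasmid's log2 effect in batch 2 less that in batch 1 was 0.06 (SE 0.12), with an adjusted p of 0.931 in edgeR. For Dmkn it was -0.31 (SE 0.12), with a p of 0.0145 before and 0.301 after adjustment in edgeR. For Krtdap it was 2.91 (SE 2.1, edgeR adjusted p 0.676) and rests on the 1 count of control replicate 1.

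**Figure D2:**
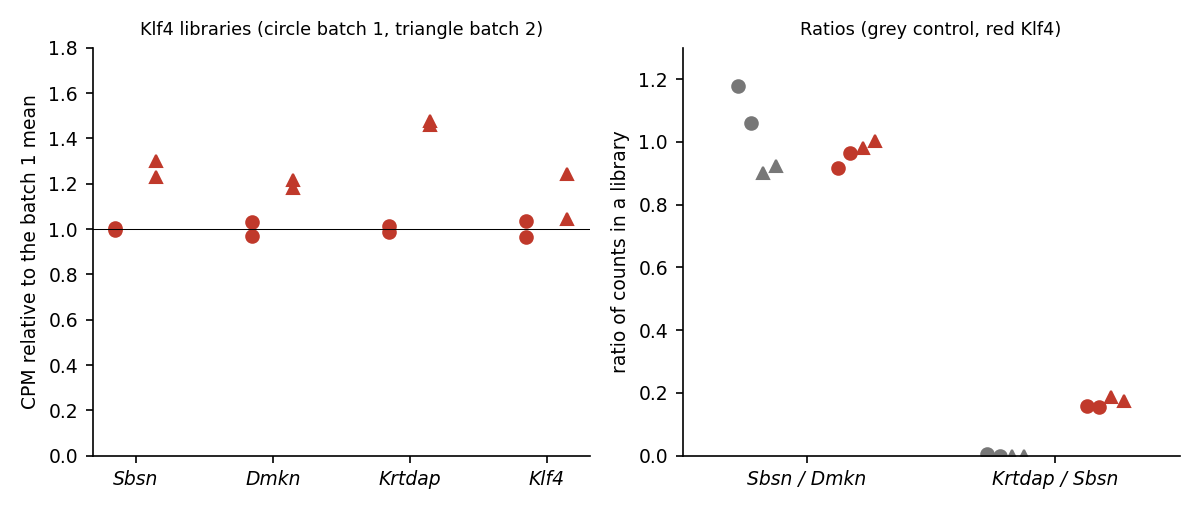
Left, CPM of Sbsn, Dmkn, Krtdap and Klf4 in each Klf4 library divided by the batch 1 mean of that gene, circles for batch 1 and triangles for batch 2. Right, ratio of counts within each library, grey for control and red for Klf4. The triangles lie above the circles for all 4 genes on the left, though for Klf4 the lowest triangle is close to the highest circle. On the right the Sbsn to Dmkn ratio stays between 0.901 and 1.18, while the Krtdap to Sbsn ratio is near 0 in control and 0.155 to 0.187 in Klf4 libraries.

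The flanks of the locus were read for the same contrast. Within 50 kb lie 8 other annotated genes, of which 6 were tested and 0 passed by edgeR at the adjusted threshold (1 at an unadjusted p under 0.05, and 0 by the DESeq2 Wald test), where 36.6% of all tested genes passed. With 6 genes tested, a count of 0 is not set apart from that share. Atp4a, a subunit of the gastric proton pump, had 31.4 ± 7.49 CPM in control and 32.8 ± 8.58 CPM in Klf4 libraries (SD, n = 4), a log2 fold change of 0.06 (SE 0.049). Tmem147, a membrane protein of the endoplasmic reticulum, had 75.6 ± 2.96 and 74.0 ± 4.83 CPM (SD, n = 4), a log2 fold change of -0.03 (SE 0.036). On the other side the fatty acid receptor gene Ffar2, 27.3 kb beyond Krtdap, had 35.5 ± 1.05 and 35.8 ± 1.08 CPM (SD, n = 4), a log2 fold change of 0.01 (SE 0.041). Among the remaining tested genes of this span, Tmem147os (ENSMUSG00000097320) had a log2 fold change of -0.23 (SE 0.11). Gapdhs, the sperm form of a glycolytic enzyme, had 0.99 (SE 0.49) on 23 and 47 counts over the groups. Gm26935 had -0.74 (SE 0.4) on 76 and 48 counts. The 3 secreted-protein genes stood between genes for which no difference was detected, though the low counts of Gapdhs and Gm26935 leave wide errors.

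Within 500 kb lie 85 annotated genes other than the 3, and 55 of them passed the filter. Of these 19 (34.5%) passed the threshold, 13 higher and 6 lower, against 36.6% of all tested genes, and their median log2 fold change was 0.01. The share over both sides and directions is close to the background. Below the locus 3 of 36 tested genes were higher and 6 lower. Above it 10 of 19 were higher and 0 lower (1 lower at an unadjusted p under 0.05, 0 by DESeq2). Of all tested genes, 21.1% were higher and 15.5% lower. Whether the sides differ from each other or from these shares was not tested. Fxyd1, above the locus, and Arhgap33os, below it, had under 10 counts in every control library. They entered the test only through the Klf4 libraries, which favours the counts of higher genes. The 30 genes under the filter had at most 14 counts in any library.

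The highest 2 log2 fold changes among these neighbours belonged to FXYD genes above the locus, which encode small membrane proteins that regulate the sodium pump. Fxyd5, 241.6 kb away, rose by 4.49 (SE 0.15) on the log2 scale, from 0.553 ± 0.122 to 12.5 ± 3.06 CPM (SD, n = 4), with an edgeR adjusted p of 7.3e-17. Fxyd1 rose by 4.37 (SE 0.6), with an edgeR adjusted p of 3.29e-06, on 4 counts over the control and 97 over the Klf4 libraries. Fxyd3 and Lgi4 overlap on opposite strands, so their counts are uncertain, and they rose by 1.85 and 1.92 on the log2 scale (edgeR adjusted p 2.81e-07 and 7.92e-08). Hpn, the serine protease hepsin, rose by 0.99 (edgeR adjusted p 0.00486) and Lsr, a lipoprotein receptor of tricellular junctions, by 0.35 (edgeR adjusted p 3.43e-08). Below the locus Kirrel2, an adhesion protein of β-cells and podocytes, rose by 1.21 (edgeR adjusted p 1.33e-10). Arhgap33os rose by 3.92 (edgeR adjusted p 9.43e-06) on 5 and 86 counts, and Wdr62 by 0.29 (edgeR adjusted p 3.49e-07). With so few control counts, Fxyd1 and Arhgap33os could enter the test only through the Klf4 libraries, where they are high.

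Other calls among the neighbours were smaller or less stable. Kmt2b (-0.21), Sdhaf1 (-0.18), Clip3 (-0.15) and Hspb6 (-0.14) were lower with edgeR adjusted p of 7.22e-06 to 0.00722. Syne4 (-0.14) lost the call without control replicate 3 or without Klf4 replicate 2 or 3. Etv2 (-1.09, on 68 and 33 counts) lost it without control replicate 2, 3 or 4, or without Klf4 replicate 2 or 3, with a value of -0.75 in that last case. It also lost it with the replicate number as a block (edgeR adjusted p 0.056). Of the free fatty acid receptor genes, Ffar1 (0.11) lost its call without control replicate 2. Ffar3 (0.17) lost it without control replicate 1, 2 or 3 or Klf4 replicate 1, 2 or 4, and with the replicate block (edgeR adjusted p 0.0515). Fxyd7 (0.33) lost it without control replicate 2 or 4 or Klf4 replicate 1 or 4. For these 5 genes the adjusted p without a library reached at most 0.231. Without the batch term Clip3, Syne4, Sdhaf1, Hspb6, Etv2, Ffar3, Ffar1, Lsr and Fxyd7 did not pass, and by DESeq2 Etv2 and Ffar3 did not.

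**Figure D3:**
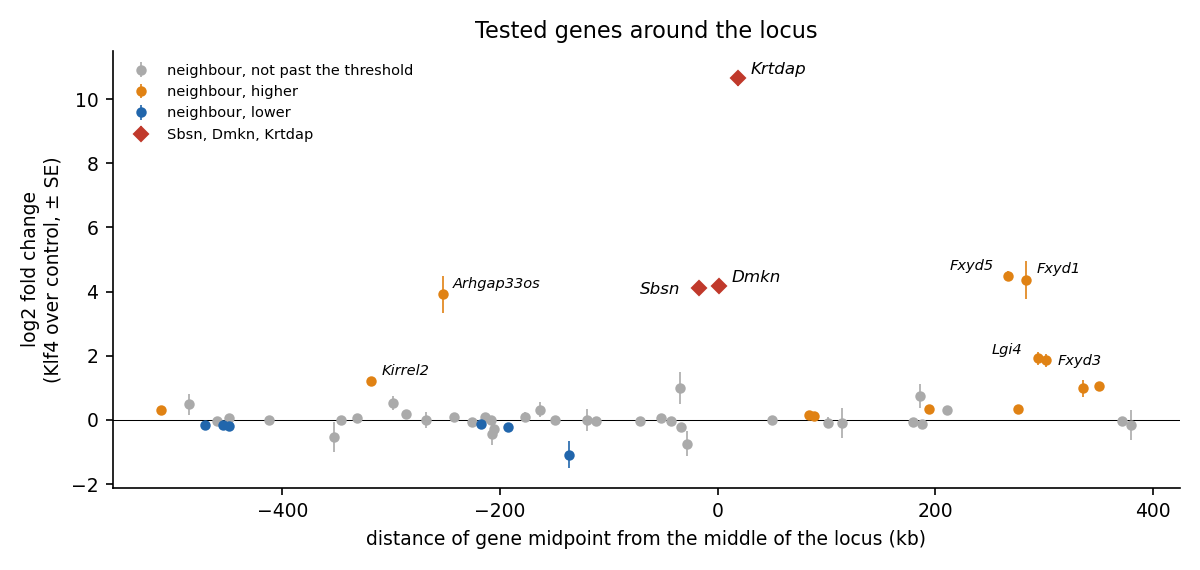
Log2 fold change of Klf4 over control libraries (vertical axis, ± SE) of the tested genes within 500 kb, against the distance of the gene's midpoint from the middle of the locus in kb. The SE drawn for Krtdap, which had 1 control count, is too small. Red diamonds are Sbsn, Dmkn and Krtdap, orange and blue points are neighbours called higher (13) and lower (6), and grey points the 36 not called. The tested genes within 50 kb of the diamonds are all grey, and Fxyd5 and Fxyd1, at 4.49 and 4.37, are the highest of the neighbours.

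Genes of the epidermal programme to which these proteins belong were counted from lists chosen with earlier results known. Of 32 genes of the suprabasal epidermis, 14 were tested, of which 12 were higher, where 21.1% of all tested genes were, and 0 lower, against 15.5% of all (0 lower at an unadjusted p under 0.05 in edgeR, 0 by DESeq2). The median log2 fold change of the tested genes was 4.58, or 3.35 with the 3 genes that had no control counts set to their lower bound, against -0.01 over all genes tested. Of the 14, 6 were under 10 counts in every control library and could enter the test only through the Klf4 libraries, where they are high, so the filter favours this count and median. Krt2, a suprabasal keratin, had no control counts and 2.81 ± 0.424 CPM in Klf4 libraries (SD, n = 4), at least 45.2-fold above the floor of 3 counts per library (edgeR adjusted p 2.57e-12). Lgals7, a keratinocyte galectin, rose by 6.90 on the log2 scale to 2.77 ± 0.337 CPM (SD, n = 4), on 4 control counts in all, with an edgeR adjusted p of 3.76e-13. Tgm1, the transglutaminase that crosslinks the envelope, rose by 5.65, from 0.275 ± 0.107 to 13.8 ± 1.13 CPM (SD, n = 4), with an edgeR adjusted p of 1.76e-18, and shares exons with an opposite-strand gene. The smaller increases were those of Asprv1, a protease that processes filaggrin (4.22, edgeR adjusted p 2.29e-11), Cdsn, the desmosome protein corneodesmosin (3.24, edgeR adjusted p 3.13e-18) and Aloxe3, a lipoxygenase of the skin barrier (0.66, edgeR adjusted p 0.000276). Other suprabasal genes had no count in any library, namely Ivl, Flg2, Kprp, Sprr1b, Sprr2d, Sprr3 and Lce3a.

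Of 20 listed small secreted epidermal proteins and inhibitors, 18 symbols were matched and 7 tested, with 5 higher, against 21.1% of all tested genes, and 0 lower (0 lower at an unadjusted p under 0.05 in edgeR, 0 by DESeq2). Their median log2 fold change was 9.75, or 5.13 with the 3 genes lacking control counts at their bound. Of the 7, 4 were under 10 counts in every control library and entered only through the Klf4 libraries, which favours the count and the median. The 11 under the filter included Defb3, Defb4, S100a8 and S100a9, all without a count in any library. Slurp1, a secreted Ly6-type protein of the skin, had 2 counts over the control libraries and 26.6 ± 4.07 CPM in Klf4 libraries (SD, n = 4), with an edgeR adjusted p of 1.15e-21, and it overlaps an opposite-strand gene. Calm4, an epidermal calmodulin-like protein, was at least 167.9-fold and Fam25c at least 133.4-fold higher than the floor (edgeR adjusted p 6.52e-17 and 2.26e-15). Lypd3, a Ly6-type protein that also overlaps an opposite-strand gene, was at least 35.0-fold higher (edgeR adjusted p 7.92e-12). Krtdap, at 12.3 CPM, lay between Slurp1 and Calm4 in CPM, which are not corrected for length.

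Of 21 transcription factors of epidermal differentiation, 18 were tested and 15 were higher, against 21.1% of all tested genes, and 0 lower (0 lower at an unadjusted p under 0.05 in edgeR, 0 by DESeq2). Their median log2 fold change was 0.86, and 4 of the 18 were under 10 counts in every control library. Those 4 entered only through the Klf4 libraries, which favours the count and the median. Ovol1, a repressor active in differentiating keratinocytes, rose by 5.32, from 0.207 ± 0.123 to 8.41 ± 1.41 CPM (SD, n = 4), with an edgeR adjusted p of 1.56e-15. Cebpa rose by 3.18 (edgeR adjusted p 4.63e-12) and Grhl3, a factor of barrier formation, by 1.88 (edgeR adjusted p 6.59e-10). Ovol2 and Hopx rose by 0.31 each (edgeR adjusted p 0.00462 and 0.0276). Ovol1, Ovol2, Cebpa and Hopx overlap opposite-strand genes. Trp63, the p63 gene that defines basal keratinocytes, had no count in any library.

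Markers of other cell types were read for the same libraries, against the same background of 21.1% higher among all tested genes. Of 8 basal keratinocyte markers, 5 of 6 tested were higher, and their summed level was 451.3 to 627.7 CPM in control and 503.9 to 548.4 CPM in Klf4 libraries. Krt5, a defining keratin of the basal layer, had 19 counts over the control and 45 over the Klf4 libraries and was not tested, while Krt14, its partner, had 1 and 4715 counts. Of 6 fibroblast markers 4 were tested and 3 were higher, with a summed level of 2.61 to 3.84 CPM in control and 21.0 to 27.3 CPM in Klf4 libraries, and Lum had no count in any library. Of the tested genes, 2 of the 4 fibroblast and 1 of the 6 basal keratinocyte markers were under 10 counts in every control library. They entered only through the Klf4 libraries, which favours both counts of higher genes. Of 6 leukocyte markers 3 were tested and 0 passed (0 at an unadjusted p under 0.05 in edgeR, 0 by DESeq2), with sums of 6.17 to 7.36 and 5.95 to 8.26 CPM. Of 4 acinar markers the 1 tested did not pass, with sums of 1.42 to 3.91 and 1.33 to 3.01 CPM. Of 3 duct markers 2 were tested and 1 was higher, Krt19, with sums of 0.476 to 0.913 and 3.22 to 4.81 CPM. The part of other cell types in the values of Sbsn, Dmkn and Krtdap was not tested.

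**Figure D4:**
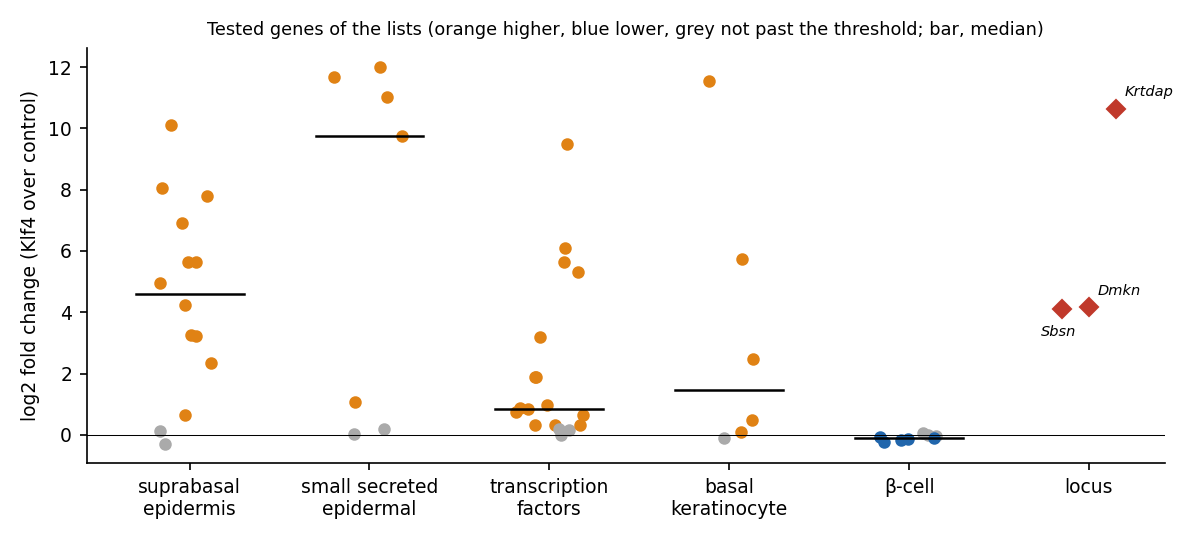
Log2 fold change of Klf4 over control libraries for each tested gene of the suprabasal (14), small secreted (7), transcription factor (18), basal keratinocyte (6) and β-cell (8) lists, and for Sbsn, Dmkn and Krtdap. Points are genes, orange for higher, blue for lower and grey for not past the threshold, and bars are medians. The suprabasal and secreted lists reach the height of Sbsn and Dmkn (4.12 and 4.16) and of Krtdap (10.64, a value that depends on the prior count, as for the other genes with almost no control counts), while the β-cell list stays between -0.22 and 0.05.

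The genes whose profile over the 8 libraries was most like that of each member were found by the root mean square difference of log2 CPM, each profile centred on its own mean. This distance depends on the size of the step between the groups, by which the 3 genes were chosen, so it is given as a description. For Sbsn the nearest of all tested genes was Dmkn, at 0.12, and for Dmkn it was Sbsn. The next nearest to Sbsn were A530053M12Rik (0.12) and Gdf7 (0.13), which had no control counts and 0.669 ± 0.0811 and 0.668 ± 0.0907 CPM in Klf4 libraries (SD, n = 4). The next nearest to Dmkn were Heyl (0.20) and A530053M12Rik (0.21). At such low counts the prior count added on the log scale sets the apparent size of the step between the groups. These matches therefore do not mean a like fold change. For Krtdap the nearest were Cnga3 (0.17), Calm4 (0.20) and Tcf23 (0.25), with 11.6 ± 2.9, 10.4 ± 2.47 and 9.16 ± 2.68 CPM in Klf4 libraries (SD, n = 4). Dmkn and Sbsn stood at 1.99 and 2.00 from Krtdap, rank 268 and 274 among the genes nearest to it, and that distance too depends on the prior count.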

How the data were processed

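The deposited values are raw read counts per gene, whole numbers with a column for each library. The submitters' processing notes name FastQC, STAR, featureCounts, edgeR and mm10, without versions, and the file name names cutadapt. The strand setting and annotation release are not given in the sources used here. All 55536 identifier and symbol pairs matched GENCODE M21 (GRCm38), used for coordinates and exon lengths. The members and lists were chosen with earlier results of these data known.

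The analysis used edgeR 4.0.16 in R 4.3.3. The filter was filterByExpr (minimum count 10), which left 18266 genes. A model with batch and plasmid, as the series' design names, was fitted with glmQLFit, and a model with their interaction gave the batch comparisons. Adjustment was Benjamini-Hochberg across these genes, with a threshold of 0.05. Each edgeR SE was the size of the log2 fold change divided by the square root of the test's F statistic. Profiles of log2 CPM used a prior count of 2. The fit was tested on simulated data. Named genes were the members, Klf4, all neighbours within 500 kb that passed, and the 3 highest and 3 lowest called genes of each epidermal list whose average log2 CPM was 0 or more; 2 genes the rule selects are counted but not reported here by name. Same-numbered libraries of the groups deviated together (r of 0.491 to 0.645 over 10403 genes, and -0.0532 and 0.0872 in the batches once batch means were removed), so the numbers pair libraries by batch. Alternatives included DESeq2 1.42.0, other filters and the omission of each library.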

Additional observations from a re-analysis of the deposited data

Results flagged for a closer look

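A library that stood far from the other 3 of its group was looked for in 78 groups of 4 libraries and found in 2. The nominal rate of the rule gives about 3.9. Groups without any count are among the 78 but could not be flagged, so that number is only a rough guide. Control replicate 1 had 0.0212 CPM of Krtdap, which is 1 count, and 0.0425 CPM of Slurp1, which is 2 counts, while the other 3 control libraries had 0 of each. Both values lie under the floor of 3 counts. The effect of the plasmid differed between batches, by edgeR's interaction test, for 2 of the 39 genes checked. For Klf4 the log2 effect was larger in batch 2 by 0.371 (edgeR adjusted p 0.0057). For the neighbour Kirrel2 it was larger by 0.629 (edgeR adjusted p 0.00199), and its log2 fold change was 0.90 in batch 1 and 1.53 in batch 2.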

How the results depend on the processing

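Of 242 recomputed values of the main results, 232 were scored as unchanged. Member fold changes had to move by less than the SD between Klf4 replicates, and tested differences to keep direction and side of the threshold. Counts of genes, many of the 242, had only to stay within a set ratio of the main count. By that rule 9 neighbours higher in place of 13 was unchanged, as was a count of 0 that stayed 0. The log2 fold change stayed between 4.06 and 4.14 for Sbsn and between 4.10 and 4.24 for Dmkn. For Krtdap it ran from 10.24 to 12.34 when each library was left out, the highest without control replicate 1, which holds its only control count. The higher level in batch 2 within Klf4 libraries kept its call for all 3 genes in all 36 recomputed values, with adjusted p of at most 0.00235 for Sbsn, 0.0383 for Dmkn and 0.0171 for Krtdap. Where that left 1 library in an arm, the lone library was assumed to vary like the others. The interaction for Sbsn ran from -0.0622 to 0.163 without a library, below 0 without control replicate 1 (-0.0154) or 3, and never passed. Without the batch term 4116 genes were called in all, against 6684, and 1 neighbour was lower, against 6; the cause was not tested. Within 250 kb, 5 neighbours were higher and 3 lower, fewer by construction. A filter at 1 CPM left 7 suprabasal genes called in place of 12, since fewer were tested. With the replicate block in place of batch, the log2 fold changes were 4.12, 4.16 and 10.64 for Sbsn, Dmkn and Krtdap, 6284 genes were called, and the calls of Etv2 and Ffar3 were lost among the neighbours. Of 262 recomputed values of single neighbours, 32 lost the call. Counts under about 10 per library in the control libraries limit Krtdap, Gapdhs, Fxyd1 and Arhgap33os.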
